A study of Homo sapiens with 6 samples.

Results

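Counts of 9 genes of the megakaryocyte lineage were analysed in K562 cells, namely the transcription factors FLI1, RUNX1 and MEIS1, the platelet receptor subunits ITGA2B, ITGB3 and GP9, and TUBB1, THBS1 and PLEK. They were taken by symbol, through their NCBI Gene identifiers, from the 25702 genes listed for each library. Of the 9 genes, 7 passed the filter on low counts, which left 15431 genes to be tested, and FLI1 and GP9 did not. K562 is an established cell line from chronic myeloid leukemia, known for erythroid features and for taking on megakaryocytic features under some treatments. The cells were nucleofected with the pCMV-HA expression plasmid, either empty (EV) or carrying MXD3 or the fusion STIM1::MXD3, and no other treatment or genetic change was stated for any group. MXD3 is a repressor that competes with MYC for its partner MAX, and in the fusion the repression region at its N-terminus is replaced by the start of STIM1 with its endoplasmic reticulum signal peptide. Each group had 2 libraries, called replicate 1 and replicate 2 after their labels. The comparisons asked whether either construct changed the level of these genes against EV and whether the constructs differed. The study states that the 2 libraries of a group came from independent transfections. The p-values between plasmid groups thus measure the spread between transfections of this cell line, any shift shared by replicate number included. Those for the replicate number measure the spread left after plasmid group and number. Expression was transient from a CMV promoter in a single cell line, and sorting of transfected cells before RNA extraction was not stated.

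Megakaryocytes are the large bone marrow cells that shed platelets. They share a progenitor with red cells, and GATA1 with its partners drives both lineages, whereas FLI1 and RUNX1 favour the megakaryocytic side. Late in maturation the cells fill with the receptors, granule proteins and microtubules that platelets carry.

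The libraries held 53048343 to 63835779 counts, and 3 counts in a library corresponded to 0.0467 to 0.0589 CPM (counts scaled to library size by the trimmed mean of M-values, TMM). MXD3 rose from 9.33 and 11.7 CPM in EV to 2523 and 2162 CPM with MXD3 and 1975 and 1849 CPM with STIM1::MXD3. STIM1 was highest in both fusion libraries, at 471 and 453 CPM against 159 to 205 CPM in the other 4. Yet this rise was not called, with a log2 fold change of 1.28 ± 0.14 (SE) against EV (adjusted p = 0.359, edgeR). Against MXD3 it was 1.42 ± 0.14 (adjusted p = 0.381, edgeR). A change of this size could thus go uncalled in the comparisons below. Erythroid markers were abundant in every library. All 17 of them had a mean of at least 1 CPM, led by the embryonic globin HBE1 at 4168 ± 437 CPM (SD, n = 6). Of 12 granulocyte and monocyte markers 5 reached 1 CPM, the highest being the myeloid factor SPI1 at 49.1 ± 11.2 CPM, and the granule enzyme MPO had 2 counts in 1 EV library and 0 elsewhere. Of 9 lymphocyte markers CD3D, a T cell receptor subunit, was highest at 16.0 ± 2.11 CPM, and MS4A1 and CD8A were at 0 in all libraries.

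The sequences around the transcription start of ITGA2B, GP9 and THBS1 are shown, the first 2 because these genes of the platelet surface stood far apart in the levels measured here, and THBS1 because it had the largest difference from EV. Windows of 300 bases, from 250 before the start to 50 from it on, came from RefSeq (GRCh38.p14), in which 7 of the 9 genes had an entry, all but FLI1 and ITGB3. The GRCh38.p14 windows lie at chr17:44389600-44389899 on the minus strand for ITGA2B, chr3:129060529-129060828 on the plus strand for GP9 and chr15:39580829-39581128 on the plus strand for THBS1. Capitals mark GATAA, a core bound by GATA factors, and GGAAG, a core bound by ETS factors such as FLI1, on either strand. Other forms of the GATA core, such as the gatag in the ITGA2B window, were not searched or marked.
ITGA2B: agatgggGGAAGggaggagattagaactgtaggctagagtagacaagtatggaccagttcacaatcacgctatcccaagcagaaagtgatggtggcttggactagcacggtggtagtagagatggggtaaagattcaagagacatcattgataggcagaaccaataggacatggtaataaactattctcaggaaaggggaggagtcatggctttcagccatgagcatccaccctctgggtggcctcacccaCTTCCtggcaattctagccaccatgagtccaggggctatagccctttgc
GP9: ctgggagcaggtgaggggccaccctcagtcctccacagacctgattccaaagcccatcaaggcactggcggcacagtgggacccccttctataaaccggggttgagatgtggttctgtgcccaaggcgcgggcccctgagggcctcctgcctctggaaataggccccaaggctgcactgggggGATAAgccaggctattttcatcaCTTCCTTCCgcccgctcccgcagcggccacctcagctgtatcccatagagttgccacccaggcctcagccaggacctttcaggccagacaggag
THBS1: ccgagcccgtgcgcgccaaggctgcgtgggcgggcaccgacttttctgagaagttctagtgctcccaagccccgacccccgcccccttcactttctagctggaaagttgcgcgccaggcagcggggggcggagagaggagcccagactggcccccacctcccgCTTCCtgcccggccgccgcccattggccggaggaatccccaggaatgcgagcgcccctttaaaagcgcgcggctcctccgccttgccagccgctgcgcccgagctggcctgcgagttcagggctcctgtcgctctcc

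Of the 7 windows, GP9 alone held GATAA, with 1 match, whereas 22.7% of all 35116 windows of this length held it. GGAAG was found 2 times in ITGA2B, GP9 and PLEK and 1 time in MEIS1, TUBB1 and THBS1, against 71.9% of all windows with a match, and not in RUNX1. The RUNX core TGTGGT had 1 match each in MEIS1, GP9, TUBB1 and PLEK (13.1% of all windows), and the E-box CACGTG, which MYC and the MXD proteins bind, had none in the 7 windows (7.26% of all windows). No motif contained another, both strands were searched, and these matches describe letters in the windows only.

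Of the transcription factors, FLI1 was hardly counted. FLI1 (Gene ID 2313, GRCh37 chr11:128556430-128683162, plus strand) is an ETS factor that activates platelet genes. It had 0 and 2 counts in EV, 0 and 0 with MXD3, and 0 and 2 with STIM1::MXD3, which is 4 counts (exact 95% Poisson interval 1.09 to 10.2, for counting error only) among 349169836. Its highest level, 0.033 CPM, lay under the level of 3 counts in any library, so no difference between groups was detectable at this depth.

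RUNX1 (Gene ID 861, GRCh37 chr21:36160098-37376965, minus strand) is required for megakaryocyte maturation and was well counted. Its level was 41.6 and 57.2 CPM in EV, 43.7 and 70.9 CPM with MXD3, and 44.6 and 73.3 CPM with STIM1::MXD3. The plasmid groups overlapped, and in each group replicate 2 was the higher library. MEIS1 (Gene ID 4211, GRCh37 chr2:66660584-66801001, plus strand), a homeobox factor of early progenitors and of the megakaryocytic branch, stood at 5.54 and 5.30 CPM in EV, 4.62 and 5.30 CPM with MXD3, and 3.05 and 5.31 CPM with STIM1::MXD3. A single library, STIM1::MXD3 replicate 1, lay below the others, which ran from 4.62 to 5.54 CPM. Antisense transcripts overlap 13.3% of its exon bases, and whether counting used strand was not stated.

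ITGA2B and ITGB3 encode the αIIb and β3 chains of the fibrinogen receptor, the most abundant integrin of the platelet surface. ITGA2B (Gene ID 3674, GRCh37 chr17:42449548-42467017, minus strand) had 22.0 and 28.6 CPM in EV, 19.1 and 21.1 CPM with MXD3, and 17.9 and 27.6 CPM with STIM1::MXD3. Both MXD3 libraries lay below both EV libraries, while the fusion libraries spanned nearly the whole range. ITGB3 (Gene ID 3690, GRCh37 chr17:45331193-45391109, plus strand) had 9.68 and 8.49 CPM in EV, 9.01 and 6.12 CPM with MXD3, and 9.43 and 6.04 CPM with STIM1::MXD3. The groups overlapped and replicate 2 was lower in each. A readthrough gene on the same strand covers 33.2% of the ITGB3 exon bases, and how reads on shared bases were assigned was not stated.

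GP9 (Gene ID 2815, GRCh37 chr3:128779622-128781249, plus strand), a subunit of the von Willebrand factor receptor, had 0 counts in all 6 libraries. With 3 counts taken as the limit that a count of 0 allows, 349169836 counts allow a level of up to 0.00858 CPM, for counting error only. This limit and the interval for FLI1 would be wider if both ends of a read pair were counted, which was not stated. In all, 5624 of the 25702 genes listed had no count in any library.

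TUBB1 (Gene ID 81027, GRCh37 chr20:57594484-57601709, plus strand), the β1 tubulin of the platelet's marginal band, was the most counted of the 9 genes. It had 60.5 and 68.5 CPM in EV, 79.3 and 73.5 CPM with MXD3, and 77.8 and 55.4 CPM with STIM1::MXD3. The MXD3 libraries lay above the EV libraries, and the fusion group held 1 library above and 1 below EV. ATP5F1E, a subunit of the mitochondrial ATP synthase at 119 to 135 CPM, lies on the opposite strand and shares 35.5% of the TUBB1 exon bases. Because the use of strand was not stated, TUBB1 levels are uncertain, and the part of ATP5F1E reads in them was not tested.

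THBS1 (Gene ID 7057, GRCh37 chr15:39873280-39891667, plus strand) encodes thrombospondin 1, an adhesive protein released from platelet α-granules. It had 35 and 38 counts in EV, 14 and 12 with MXD3, and 31 and 21 with STIM1::MXD3, or 0.687 and 0.628 CPM, 0.218 and 0.214 CPM, and 0.566 and 0.334 CPM. The groups did not overlap, with EV highest and MXD3 lowest. FSIP1 on the opposite strand, at 0.124 to 0.572 CPM, and an antisense transcript share 7.58% of the THBS1 exon bases.

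PLEK (Gene ID 5341, GRCh37 chr2:68592414-68624585, plus strand) encodes pleckstrin, the main substrate of protein kinase C in platelets. It had 49 and 53 counts in EV (0.962 and 0.875 CPM), 50 and 37 with MXD3 (0.778 and 0.659 CPM), and 57 and 43 with STIM1::MXD3 (1.04 and 0.684 CPM). Both MXD3 libraries lay below the EV libraries, and the fusion group held the highest library and 1 of the lowest. Thus 5 of the 9 genes reached a mean of 1 CPM over the 6 libraries, THBS1, PLEK and FLI1 were counted below it, and GP9 was not counted.

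**Figure D1:**
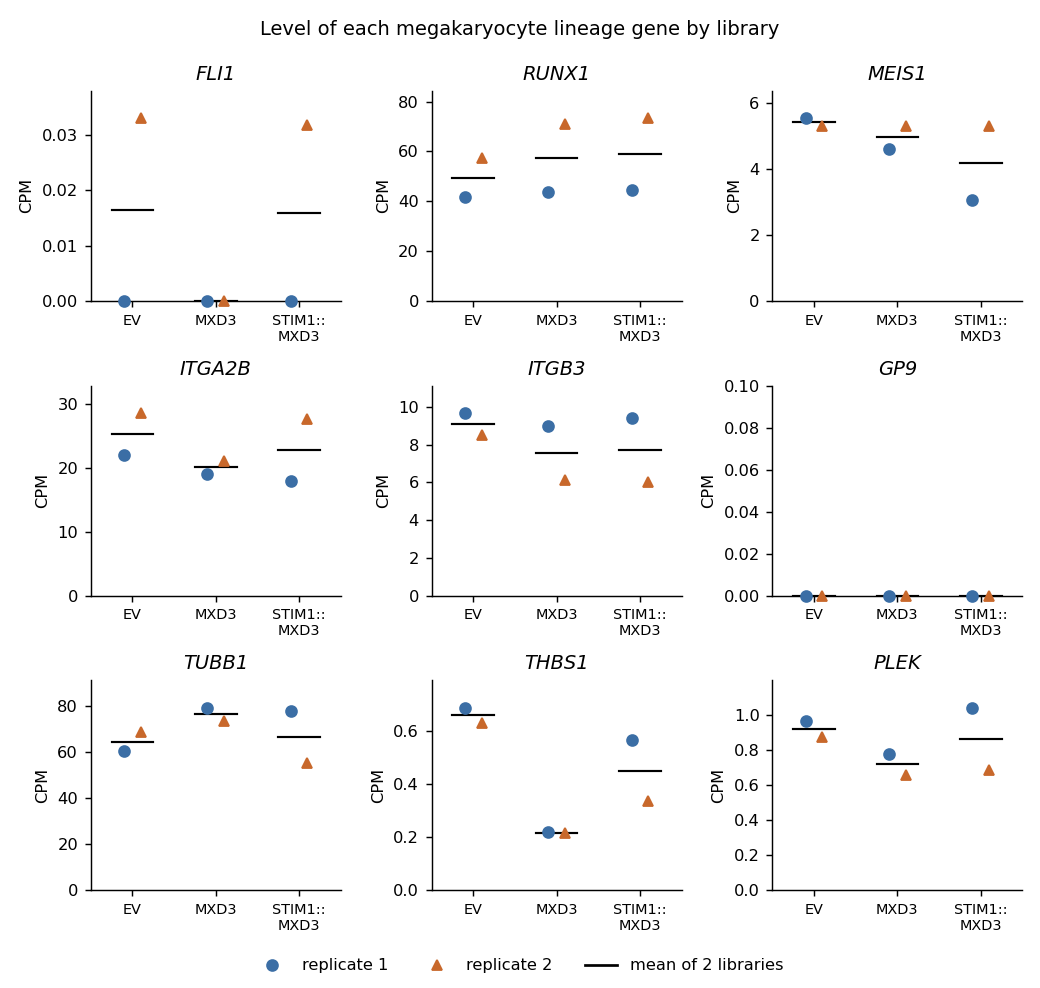
Level of each of the 9 genes in CPM (TMM-scaled, linear axis from 0, its own range in each panel) by plasmid group, with circles for replicate 1, triangles for replicate 2 and a bar for the mean of 2 libraries. RUNX1 was higher in replicate 2 than in replicate 1 of every group, THBS1 was at 0.218 and 0.214 CPM with MXD3, and GP9 was at 0 throughout.

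To compare levels between genes, CPM was divided by the exon length of each gene in kb. This length joined all annotated exons of a gene, 15574 bp for RUNX1 and 3321 bp for TUBB1. It may exceed the length of the transcripts present, and the order and ranks below depend on it. TUBB1 led with a median of 21.4 CPM per kb over the 6 libraries (16.7 to 23.9), rank 2237 of the 18202 genes that had both a length and a count. ITGA2B followed at 3.79 (3.14 to 5.03) and RUNX1 at 3.26 (2.67 to 4.71), and these did not differ beyond their spread. ITGB3 was at 1.28 CPM per kb (0.885 to 1.42), clear of RUNX1 above it and of MEIS1 below it. MEIS1 at 0.485 (0.278 to 0.506) and PLEK at 0.258 (0.206 to 0.324) overlapped. THBS1 stood at 0.0491 CPM per kb (0.0233 to 0.075), rank 14151. On this scale the α chain ITGA2B lay above its partner ITGB3 in every library, the lowest ITGA2B value being 3.14 and the highest ITGB3 value 1.42 CPM per kb.

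The other genes of the program were counted from 4 further lists. Of 18 megakaryocyte transcription factors 17 had a mean of at least 1 CPM, among them GATA1 (240 to 320 CPM), the master factor of both lineages, GATA2 (141 to 177 CPM), and GFI1B (115 to 243 CPM), a repressor needed for platelet formation. ERG, an ETS factor related to FLI1, was the exception with 10 counts in all. Of 18 platelet surface receptors 9 reached 1 CPM, the highest being the ATP-gated channel P2RX1 at 40.3 ± 5.48 CPM (SD, n = 6). GP1BA, the chain of the von Willebrand factor receptor that binds its ligand, was at 0.584 to 1.55 CPM, whereas its partner chains GP1BB and GP5 had 0 counts in all libraries, as GP9 did. The ADP receptor P2RY12 also had 0.

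Of 18 granule and secreted proteins 9 reached 1 CPM. The highest was TIMP1, an inhibitor of metalloproteinases, at 290 ± 16.8 CPM, and the platelet chemokine PF4 and VWF, the carrier of coagulation factor VIII, had 0 to 9 counts a library. PF4V1, F13A1 and VEGFC had 0 counts in all libraries. Of 27 cytoskeleton and signalling genes 21 reached 1 CPM, led by the actin crosslinker FLNA at 1227 ± 154 CPM, and GUCY1A1, PDE3A and TREML1 were at 0 throughout. In bulk RNA, fewer cells that express a gene and less RNA per cell cannot be told apart.

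**Figure D2:**
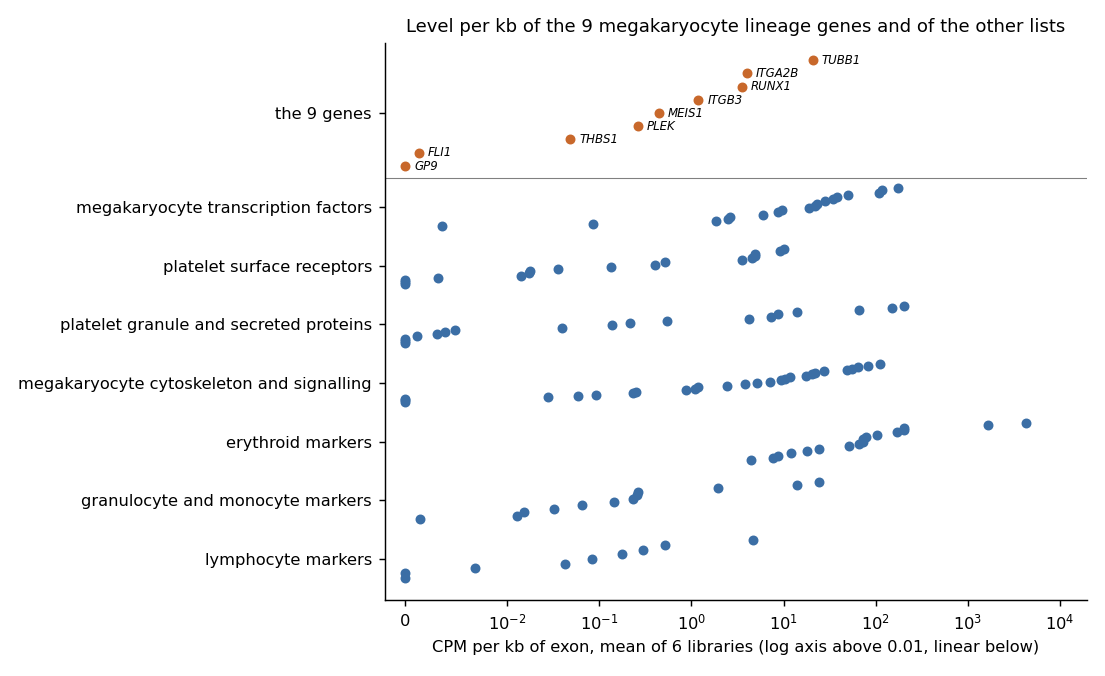
Mean level over the 6 libraries in CPM per kb of exon (log axis above 0.01, linear below it) for the 9 genes, labelled, and for the genes of 7 other lists, 1 point a gene, spread vertically within a list by rank and without PECAM1, which had no matched length. TUBB1 was highest of the 9 and GP9 was at 0, and the erythroid markers all lay above 1.

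For STIM1::MXD3 against EV, 0 of the 7 tested genes changed past an adjusted p of 0.05 (quasi-likelihood test of edgeR, Benjamini-Hochberg adjusted over 15431 genes), where 0.00648% of all genes tested did. The 1 gene behind this share was MXD3 itself, which the plasmid carried (adjusted p = 5.23e-05, edgeR). DESeq2 called 0 of the 7 genes as well, and 0 of the 7 had an unadjusted p under 0.05, against 0.953% of all genes. RUNX1 differed by 0.25 ± 0.32 (SE) on the log2 scale, with a 95% interval of -0.49 to 1.00, and MEIS1 by -0.37 ± 0.30. The integrin chains differed by -0.16 ± 0.24 (ITGA2B) and -0.23 ± 0.29 (ITGB3), and TUBB1 by 0.05 ± 0.18. The widest intervals belonged to the thinly counted genes. THBS1 differed by -0.55 ± 0.53 with an interval of -1.81 to 0.71, and PLEK by -0.09 ± 0.42 with an interval of -1.09 to 0.90. Each adjusted p was 1.00 (edgeR). THBS1 alone did not overlap between the groups, 1 of 7 genes where 22.0% of all genes did so, and the median log2 fold change of the 7 genes was -0.16 beside 0.0096 over all genes tested. A log2 fold change above 0 was found in 2 of the 7 genes and 52.1% of all genes.

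In the comparison of MXD3 with EV, 0 of the 7 genes passed with edgeR and 0 with DESeq2. Of all genes 0.00648% passed with edgeR, which was the transfected MXD3 alone (adjusted p = 4.38e-05, edgeR). An unadjusted p under 0.05 was found for 1 of the 7 genes, against 1.86% of all genes. That gene was THBS1, at 0.657 ± 0.0421 CPM (SD, n = 2) in EV and 0.216 ± 0.00301 CPM with MXD3. The log2 fold change was -1.60 ± 0.56, with an interval of -2.91 to -0.28, so that its level with MXD3 was 0.331 of that in EV (unadjusted p = 0.024, adjusted p = 0.999, edgeR). Within replicate 1 the log2 ratio was -1.52 and within replicate 2 it was -1.42, both with a prior count of 2. It rested on 12 to 38 counts a library and did not pass over all genes under any alternative that gave an adjusted p, in a range of 0.272 to 1.00 (edgeR and DESeq2).

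The other genes differed less between MXD3 and EV. ITGA2B was at 25.3 ± 4.66 CPM (SD, n = 2) in EV and 20.1 ± 1.39 CPM with MXD3, a log2 fold change of -0.33 ± 0.24. TUBB1 went from 64.5 ± 5.61 to 76.4 ± 4.09 CPM (0.24 ± 0.18), and PLEK from 0.919 ± 0.0613 to 0.718 ± 0.0845 CPM (-0.35 ± 0.42). These 3 genes and THBS1 did not overlap between the groups, 4 of 7 where 31.0% of all genes did so. RUNX1 (0.21 ± 0.32), ITGB3 (-0.26 ± 0.29) and MEIS1 (-0.13 ± 0.30) overlapped. The median over the 7 genes was -0.26 beside 0.0011 over all genes tested, and 2 of the 7 lay above 0, against 50.2% of all genes.

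Between STIM1::MXD3 and MXD3, 0 of the 7 genes passed with edgeR or with DESeq2, where 0% of all genes did with edgeR, and 0 had an unadjusted p under 0.05 (1.01% of all genes). THBS1 lay higher in both fusion libraries than in both MXD3 libraries, at 0.450 ± 0.164 CPM (SD, n = 2) against 0.216 ± 0.00301 CPM. Its log2 difference was 1.05 ± 0.56 with an interval of -0.27 to 2.37 (unadjusted p = 0.103, adjusted p = 1.00, edgeR). It was the single gene of the 7 that did not overlap, where 21.1% of all genes did so. The other 6 genes differed by -0.25 (MEIS1) to 0.26 (PLEK) on the log2 scale, and 5 of the 7 lay above 0, against 52.1% of all genes. Each group served in 2 of these comparisons, so the 3 sets of values for a gene are not independent.

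**Figure D3:**
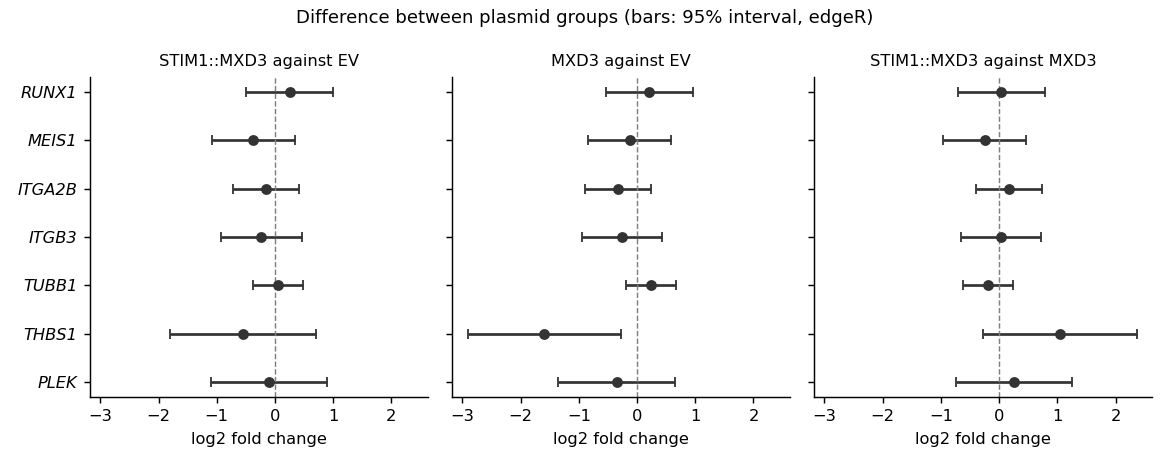
Log2 fold change of the 7 tested genes in the 3 comparisons of plasmid groups, with 95% intervals from edgeR as bars and a dashed line at 0. Every interval spans 0 except that of THBS1 for MXD3 against EV, -2.91 to -0.28, which did not pass the adjustment over all genes tested.

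Of the 92 tested genes of the 7 other lists, edgeR and DESeq2 called 0 in each of these comparisons, and an unadjusted p under 0.05 was reached by 3 between the fusion and EV, by 2 between MXD3 and EV and by 1 between the constructs. With the replicate number as a block, 1 of the 92 (edgeR) and 7 (DESeq2) were called between MXD3 and EV. The counts were 0 and 1 between the fusion and EV, and 0 by both between the constructs. Over all genes, too, more were called with the block than without it, in numbers given in the closing section. Whether the lists differed from all genes in this was not tested. Summed erythroid markers spanned 8070 to 8909 CPM in EV, 8072 to 9528 CPM with MXD3 and 7175 to 10059 CPM with STIM1::MXD3, the fusion libraries lying on both sides of the other 4.

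Levels of the 7 genes were also compared by replicate number. In the 3 replicate 2 libraries against the 3 replicate 1 libraries, with the plasmid group as a covariate, 3 of the 7 genes changed (edgeR, adjusted p under 0.05), where 29.2% of all genes tested did, 13.1% higher and 16.1% lower, so differences by number were common among all genes. The labels do not say what the number stands for. RUNX1 was higher in replicate 2 in 3 of 3 groups, with a log2 difference of 0.63 ± 0.08 (SE) or 1.54-fold (adjusted p = 6.2e-05, edgeR). Its 3 replicate 2 libraries (57.2 to 73.3 CPM) did not overlap its 3 replicate 1 libraries (41.6 to 44.6 CPM). ITGA2B was higher by 0.38 ± 0.11 in 3 of 3 groups (adjusted p = 0.0135, edgeR). ITGB3 was lower in 3 of 3 groups, without overlap (log2 difference -0.46 ± 0.14, adjusted p = 0.0226, edgeR). The α and β chains of the fibrinogen receptor thus moved in opposite directions with the number. RUNX1 and ITGB3 were 2 of 7 genes without overlap, where 38.6% of all genes had none. An unadjusted p under 0.05 was found for 3 of the 7 genes and 39.8% of all genes, and a log2 difference above 0 for 3 of the 7 and 50.7% of all genes.

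Of these 3 calls, that of RUNX1 held when any library was left out. Without STIM1::MXD3 replicate 1 the adjusted p of ITGA2B rose to 0.136, and to 0.0925 without replicate 2 of that group (edgeR). That of ITGB3 was 0.131 to 0.142 when any 1 of the 4 MXD3 and STIM1::MXD3 libraries was left out (edgeR). TUBB1 did not pass with all libraries (-0.14 ± 0.10, adjusted p = 0.315, edgeR), but did without either EV library (log2 difference -0.301, adjusted p = 0.014 and 0.0151, edgeR). It was 55.4 against 77.8 CPM in the fusion group and 68.5 against 60.5 CPM in EV. MEIS1 differed by 0.31 ± 0.18 (adjusted p = 0.226), THBS1 by -0.32 ± 0.51 (adjusted p = 0.681) and PLEK by -0.33 ± 0.36 (adjusted p = 0.535, edgeR for all).

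Erythroid markers were examined in the same comparison. Of 17 tested, 8 were lower and 1 higher in replicate 2, beside 16.1% of all genes lower and 13.1% higher, and their summed level was 8909 to 10059 CPM in the replicate 1 libraries and 7175 to 8072 CPM in the replicate 2 libraries. The globin transcripts HBA1 (-1.14 ± 0.08), HBZ (-0.90 ± 0.07) and HBG1 (-0.76 ± 0.07) fell most on the log2 scale, with the erythroid factor KLF1 (-0.56 ± 0.08, adjusted p from 8.97e-07 for HBA1 to 0.000113 for KLF1, edgeR). HBA1 and HBG1 have near-identical copies, so their counts are uncertain. The part of this shift in the RUNX1, ITGA2B and ITGB3 differences was not tested.

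Genes of the other megakaryocyte lists changed in both directions with the number. Of 17 tested transcription factors 6 were lower and 1 higher in replicate 2, with GFI1B at -0.78 ± 0.07, LYL1 at -0.76 ± 0.07, ZFPM1, the cofactor of GATA1, at -0.50 ± 0.08 and LMO2 at 0.33 ± 0.08 (adjusted p from 3.16e-06 for GFI1B to 0.00417 for LMO2, edgeR). GATA1 was among the lower factors (log2 difference -0.243 ± 0.067, adjusted p = 0.0121, edgeR), and GATA2 differed by 0.08 ± 0.07 (adjusted p = 0.434, edgeR). Of 10 tested receptors the tetraspanin CD9 was lower (-0.65 ± 0.21, adjusted p = 0.0303) and the thromboxane receptor TBXA2R higher (0.38 ± 0.13, adjusted p = 0.0372, edgeR). The number of receptors called was 0 without either STIM1::MXD3 library, 1 without either MXD3 library and 4 without either EV library.

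Of 10 tested granule and secreted proteins SPARC (-0.45 ± 0.09), TGFB1 (-0.35 ± 0.07) and SRGN (-0.22 ± 0.07) were lower (adjusted p from 0.000997 for TGFB1 to 0.0316 for SRGN, edgeR). Of 24 tested cytoskeleton and signalling genes 4 were higher and 4 lower, among them the kinase SYK (0.38 ± 0.08), the Rap activator RASGRP2 (0.49 ± 0.15), vinculin VCL (-0.39 ± 0.07) and cyclooxygenase 1 PTGS1 (-0.39 ± 0.08, adjusted p from 0.000435 for VCL to 0.0211 for RASGRP2, edgeR). Without either STIM1::MXD3 library 4 of the 24 were called. Of 9 tested granulocyte and monocyte markers SPI1 was called (-0.45 ± 0.09, adjusted p = 0.00165, edgeR), and 2 were called without MXD3 replicate 2. Of 5 tested lymphocyte markers edgeR and DESeq2 called 0, and 1 had an unadjusted p under 0.05. The share of tested genes called was 42.9% for the 7 genes, 41.2% for the transcription factors, 20% for the receptors and 40.0% for the granule proteins. It was 33.3% for the cytoskeleton and signalling genes and 52.9% for the erythroid markers. The granulocyte and monocyte markers stood at 11.1% and the lymphocyte markers at 0%, and the share of all genes tested was 29.2%. Whether any list differed from the rest was not tested.

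**Figure D4:**
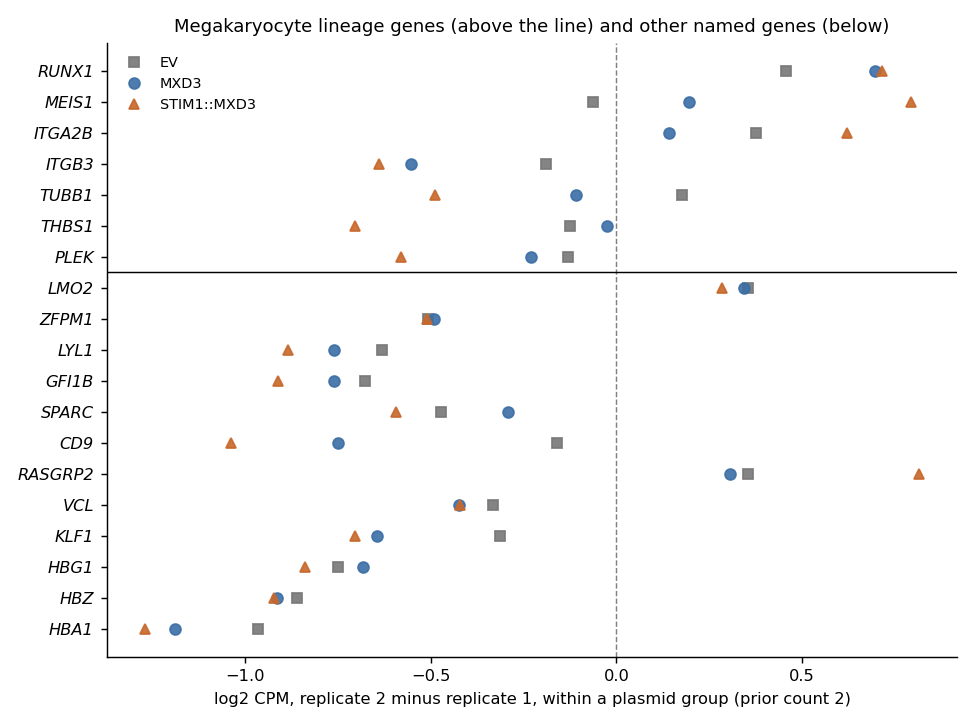
Log2 CPM of replicate 2 minus replicate 1 within each plasmid group (prior count of 2), with 1 point for each of the 3 groups, for the 7 tested genes above the line and other named genes below it. RUNX1 and ITGA2B lie right of 0 and ITGB3 left of 0 in all 3 groups, TUBB1 and MEIS1 lie on both sides, and GFI1B, LYL1 and the globins lie left of 0.

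Genes with a like pattern over the 6 libraries were sought for RUNX1, MEIS1 and ITGB3, whose log2 CPM had an SD above 0.3 and whose mean level was at least 1 CPM. The measure was the root mean square difference between log2 CPM values, each centred on its own mean, over 12370 candidate genes. Closest to RUNX1 were the antisense transcript TRG-AS1 (0.0213) and C2orf68 (0.0261), which stood at 30.3 and 39.9 CPM in EV and 31.5 and 53.7 CPM with STIM1::MXD3. MEIS1 was matched most closely by PBLD (0.0468) and FCGR2C (0.0639), both lowest in STIM1::MXD3 replicate 1, at 1.97 and 1.13 CPM. Next to ITGB3 lay the splicing factor PRPF18 (0.0407) and the nucleotide-sugar transporter SLC35A3 (0.0422), each lower in replicate 2 of every group. These matches rest on 6 libraries and are given as a description.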

How the data were processed

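RNA from K562 cells was made into poly A libraries and sequenced as read pairs, with 3 plasmid groups of 2 libraries each. The authors deposited raw counts per gene under NCBI Gene identifiers, 1 table a library. The submitters' processing notes name hg19, HISAT2 2.2.1 and featureCounts 2.0.1. The annotation, the use of strand and the counting of pairs are not given in the sources used here. Of counts from 1 to 39, 59.8% to 67.3% were even, so both ends of a pair may have been counted.

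Of 25702 identifiers, 23696 matched a symbol and 22778 a GRCh37 exon length. Totals of 53048343 to 63835779 counts put 3 counts, taken as the floor, at 0.0467 to 0.0589 CPM. Plasmid groups and replicate numbers came from the labels. Genes kept by filterByExpr (15431) were scaled by TMM and tested two-sided with the quasi-likelihood test of edgeR 4.0.16 (R 4.3.3) in 1 fit of 6 libraries, without a covariate for plasmid groups and with the plasmid group as a covariate for the replicate numbers. The Benjamini-Hochberg adjustment ran over all genes tested and calls were made at an adjusted p of 0.05. Log2 CPM values carry a prior count of 2. The scripts were tested on simulated data with the same spread for every gene, in which no gene as thinly counted as THBS1 or PLEK was changed. DESeq2 1.42.0, other filters, size factors, prior counts, pair counting, a replicate block and leaving out libraries were alternatives.

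All 9 genes are named. Of the 7 other lists, written from general knowledge, up to 4 genes per list and comparison with the largest called change, the gene with the highest mean CPM and fixed references are named, except some that are not reported here, and the other genes at 0 counts and ERG were chosen after their values were seen. The genes and lists were chosen with earlier results of these data known. The Poisson interval of FLI1, the limit for GP9 and the floors cover counting error only, whereas the edgeR intervals use the spread between libraries.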

Additional observations from a re-analysis of the deposited data

How the results depend on the processing

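No call of the 9 genes between plasmid groups appeared under any alternative run, the replicate block included. Counts over all genes were small and moved. In the fit used in the Results, the 1 gene called against EV was the transfected MXD3 itself, with either construct. For STIM1::MXD3 against EV, 1 gene was called, 2 without a filter, 3 with DESeq2, and 3 (edgeR) and 19 (DESeq2) with the replicate block. For MXD3 against EV, 1 was called, 3 with DESeq2, 45 (edgeR) and 238 (DESeq2) with the block, and 1 to 2 without 1 library. For STIM1::MXD3 against MXD3, 0 were called, 1 without a filter, 1 with DESeq2, and 1 (edgeR) and 5 (DESeq2) with the block. The libraries share a number only. Across genes, the departures of 2 libraries with 1 number from their group means correlated at 0.27 to 0.45.

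For the replicate number, 4499 genes were called, and 2580 (without STIM1::MXD3 replicate 1) to 4424 without 1 library. Of the 7 tested genes 3 were called, and 1 to 4 without 1 library. ITGB3 was also lost without the plasmid covariate (log2 difference -0.44, adjusted p = 0.0547, edgeR). Leaving out a library empties its pair, so these fits rest on the other groups.

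Leaving out 1 library leaves the replicate numbers unbalanced between plasmid groups, and the direction of several small log2 differences then turned. STIM1::MXD3 against EV ran from -0.16 to 0.57 for RUNX1, -0.51 to 0.12 for ITGA2B, -0.59 to 0.0473 for ITGB3, -0.22 to 0.26 for TUBB1 and -0.42 to 0.17 for PLEK, and kept its direction from -0.84 to -0.0281 for MEIS1 and -0.97 to -0.22 for THBS1. MXD3 against EV ran from -0.19 to 0.53 for RUNX1 and, without a turn, from -1.66 to -1.53 for THBS1. STIM1::MXD3 against MXD3 ran from -0.37 to 0.44 for RUNX1, -0.71 to 0.10 for MEIS1, -0.18 to 0.45 for ITGA2B, -0.33 to 0.32 for ITGB3, -0.46 to 0.0178 for TUBB1 and -0.0734 to 0.52 for PLEK, and from 0.62 to 1.37 for THBS1. Within replicate 1 and replicate 2, STIM1::MXD3 against EV was 0.10 and 0.36 for RUNX1, -0.30 and -0.05 for ITGA2B and -0.0374 and -0.49 for ITGB3, of 1 sign each, but 0.36 and -0.30 for TUBB1, 0.11 and -0.34 for PLEK and -0.86 and 0.0023 for MEIS1. For RUNX1, MXD3 against EV was 0.07 and 0.31. By replicate number, TUBB1 ran from -0.30 to 0.0513. The cause of these shifts was not tested. In these fits the lone library of a group is assumed to vary like the others. The depth limits THBS1, at 12 to 38 counts a library, and PLEK, at 37 to 57.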
